A study of Mus musculus with 17 samples.

Results

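Lipid-associated macrophage genes were followed through leptin knockout and wildtype fat implants and through the endogenous fat of mice, as 10 rows chosen by gene symbol from the 54658 genes of the deposited table: Trem2, Tyrobp, Gpnmb, Cd68, Spp1, Cd9, Itgax, Lgals3, Apoe and Fabp5. All 10 symbols were found and all 10 passed the filter on low values. The list was drawn up with results of the implants and of visceral fat known. The values of these tissues are therefore given as a description without a test. Tests are given for the list within visceral fat, within the wildtype implants and between visceral and subcutaneous fat. A contrast between group codes of the knockout and wildtype implants was added after seeing the data. Its counts are given as a description only.

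RNA was sequenced in 16 mouse libraries, 2 for each of 8 codes. MKM and MKF are implants grown from mouse embryonic fibroblasts (MEF) of leptin knockout pups, and MWM and MWF are implants grown from MEF of wildtype pups, where the last letter stands for groups described as male and female. The cells had been injected under the skin over the breastbone of hosts called LD at 3 to 5 weeks of age. In work with this model LD stands for lipodystrophic mice, in which diphtheria toxin A driven by adiponectin-Cre removes the host's own fat; the design text calls all hosts male. Endogenous visceral fat carries the codes EVM (with surgery), EVFY (visceral by its genotype label, the code is not spelled out) and EVFN (without surgery), and endogenous subcutaneous fat the code ESM (male, with surgery). The genotype of the mice that gave endogenous fat is not stated. Surgery was destabilization of the medial meniscus of a knee at 16 weeks, and tissue was taken at 28 weeks. The implant codes MKM, MKF, MWM and MWF are listed with this surgery, as are EVM and ESM. KO implants and WT implants below stand for libraries labelled with these codes.

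Lipid-associated macrophages gather around dying or overfilled fat cells in obese fat and take up the released lipid. Trem2 is their lipid-sensing surface receptor. It has no signalling tail of its own and works through the adaptor DAP12, encoded by Tyrobp, which is phosphorylated and recruits the kinase Syk. A related programme, also dependent on Trem2, is known from microglia around amyloid plaques and from foam cells of atherosclerotic vessels. It includes lysosomal proteins (Cd68, Gpnmb), lipid carriers (Apoe, Fabp5), adhesion proteins (Itgax, Cd9) and secreted proteins (Spp1, Lgals3).

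The bases just before the transcription start are shown for 4 members that were among the highest in KO implants relative to WT implants, to let the shared and unshared motifs be read directly. They come from RefSeq on build GRCm38.p6, the patch release of the build mm10 used by the submitters. Each run is the 250 bases before the start, read 5′ to 3′ on the gene's strand, for Trem2 at chr17:48346151-48346400 (plus strand), Cd68 at chr11:69666171-69666420 (minus strand), Itgax at chr7:128129300-128129549 (plus strand) and Gpnmb at chr6:49036268-49036517 (plus strand). Capitals mark matches to GAGGAA, a core bound by the myeloid factor PU.1, and to TGANTCA, on either strand. The pattern TGANTCA takes in the AP-1 site TGAGTCA but is wider than it. The third motif searched, CACGTG, is bound by the lysosomal regulators of the Mitf and Tfe family.
Trem2: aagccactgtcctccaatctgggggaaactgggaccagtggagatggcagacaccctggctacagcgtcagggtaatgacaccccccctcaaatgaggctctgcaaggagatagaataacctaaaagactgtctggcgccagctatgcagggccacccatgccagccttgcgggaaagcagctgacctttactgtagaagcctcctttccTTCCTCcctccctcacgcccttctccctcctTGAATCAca
Cd68: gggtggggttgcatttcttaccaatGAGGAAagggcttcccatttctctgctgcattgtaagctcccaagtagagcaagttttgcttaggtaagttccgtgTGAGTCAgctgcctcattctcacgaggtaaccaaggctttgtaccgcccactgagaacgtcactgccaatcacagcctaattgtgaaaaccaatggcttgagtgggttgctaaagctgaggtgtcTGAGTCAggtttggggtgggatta
Itgax: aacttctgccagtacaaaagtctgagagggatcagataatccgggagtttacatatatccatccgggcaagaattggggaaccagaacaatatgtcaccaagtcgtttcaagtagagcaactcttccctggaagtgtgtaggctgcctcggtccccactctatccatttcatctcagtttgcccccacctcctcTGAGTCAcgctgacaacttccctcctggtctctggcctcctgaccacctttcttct
Gpnmb: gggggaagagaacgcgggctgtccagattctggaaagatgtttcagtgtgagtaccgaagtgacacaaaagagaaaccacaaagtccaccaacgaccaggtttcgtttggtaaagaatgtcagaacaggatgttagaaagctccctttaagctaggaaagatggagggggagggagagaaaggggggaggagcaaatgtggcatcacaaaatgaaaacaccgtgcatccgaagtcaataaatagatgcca
Windows were available for 8 of the 10 members, all except Tyrobp and Fabp5, with 11 windows in all since Spp1 and Apoe have several. TGANTCA stood in 3 of the 11 windows (of Trem2, Cd68 and Itgax), against 6.75% of all 32851 promoter windows. In Trem2 it began 9 bases before the start, in Itgax 56 bases before it, and in Cd68 24 and 149 bases before it. The matched letters were TGAGTCA in Cd68 and Itgax, and TGAATCA in Trem2. GAGGAA stood in 5 of the 11 windows, from 4 members (Trem2, Cd68, Spp1 and Apoe), against 23.3% of all windows, and CACGTG in 0 of the 11, against 6.02%. The Gpnmb window held none of the 3. The motifs do not share bases in these windows, and a match is only a match of letters.

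Levels are given in CPM, counts per 1000000 counted reads of a library, at totals of 16444965 to 25805502 reads. The libraries labelled MKM1 and EVFN1 stood apart from their groups and are given separately: across all genes MKM1 correlated best with EVFY1 (r = 0.989) and EVFN1 best with MKF1 (r = 0.984), genes not being independent replicates. Group means therefore use 14 libraries, 3 of KO implants, 4 of WT implants, 5 of visceral fat and 2 of subcutaneous fat. Leptin mRNA (Lep) averaged 1568 ± 206 CPM in KO implants and 1597 ± 858 CPM in WT implants (SD, n = 3 and 4), so this level does not check the genotype; the allele is not stated. Cfd, encoding adipsin (complement factor D), averaged 99.1 ± 6.70 CPM in KO implants and 1560.2 ± 442 CPM in WT implants. The labels name the tissue as sensory ganglia, yet the summed level of 8 adipocyte markers was 12018 to 41591 CPM and that of 11 sensory neuron markers 8.26 to 44.5 CPM over the 14 libraries. Whether libraries with the same code came from different mice is not stated, and p-values cover only the spread among the libraries. In bulk tissue, fewer cells of a type and less RNA per cell cannot be told apart.

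Members were also compared per kb of the annotated exons of all transcripts of a gene joined together. This length was 4946 bases for Trem2 and 667 for Tyrobp. It can exceed the length of a single transcript, and the order of the members depends on it. That order was led in every tissue by Apoe, at 2367 ± 542 CPM per kb in KO implants, 2110 ± 693 in WT implants, 1909 ± 355 in visceral fat and 2719 ± 198 in subcutaneous fat (SD). Lgals3 was next in each tissue, with 865 ± 53.4 CPM per kb in KO implants and 148 ± 102 in WT implants. Cd68 and Tyrobp followed in KO implants at 582.3 ± 84.3 and 309 ± 33.5 CPM per kb, and Spp1 was lowest there at 37.8 ± 24.9. In WT implants Spp1 ranked at place 3 with 84.8 ± 53.9 CPM per kb, near Cd68 at 82.6 ± 35.6, values that do not differ beyond their spread.

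The receptor and its adaptor were highest in KO implants. Trem2 (chromosome 17, 48346401 to 48354147, plus strand, mm10) had 300.5 (MKM2), 306 (MKF1) and 345 CPM (MKF2) in KO implants, 56.3 (MWM1), 23.6 (MWM2), 8.02 (MWF1) and 13.6 CPM (MWF2) in WT implants, 70.6 (EVM1), 48.6 (EVM2), 13.5 (EVFY1), 14.1 (EVFY2) and 5.64 CPM (EVFN2) in visceral fat and 5.62 (ESM1) and 10.8 CPM (ESM2) in subcutaneous fat. The KO implants lay close together and above all the other 11 libraries, whereas the WT implants and visceral fat each spread widely and overlapped. The mean was 317 ± 24.3 CPM in KO implants and 25.4 ± 21.6 CPM in WT implants (SD, n = 3 and 4), a ratio of 12.5. Tyrobp (chromosome 7, 30413760 to 30417585, plus strand), which also serves other receptors of myeloid and natural killer cells, had 182, 210.4 and 226 CPM in the KO implants MKM2, MKF1 and MKF2, against 60.6 and 45.3 CPM in MWM and 36.3 and 35.5 CPM in MWF. In visceral fat it had 82.3 and 59.0 CPM in EVM, 23.7 and 31.8 CPM in EVFY and 20.97 CPM in EVFN2, and in ESM 29.5 and 36.7 CPM. The adaptor differed less than the receptor, with a ratio of means between KO and WT implants of 4.64.

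Surface proteins with a glycoprotein or adhesion role also had their highest mean in KO implants, while the order of the other tissues differed between genes. Gpnmb (chromosome 6, 49036546 to 49070929, plus strand), a transmembrane glycoprotein of lysosomes and the surface of lipid-laden macrophages, had 1943 (MKM2), 1829 (MKF1) and 2023 CPM (MKF2) in KO implants, against 311 (MWM1), 158 (MWM2), 79.5 (MWF1) and 80.3 CPM (MWF2) in WT implants. In visceral fat it had 843 (EVM1) and 672 CPM (EVM2), but 26.2 (EVFY1), 62.1 (EVFY2) and 37.2 CPM (EVFN2), and in subcutaneous fat 114 (ESM1) and 145 CPM (ESM2). EVM thus lay above every WT implant and the other fat libraries, and no library of KO implants overlapped another tissue. Itgax (chromosome 7, 128129547 to 128150657, plus strand), the CD11c integrin chain used to mark inflammatory fat macrophages and dendritic cells, had 377, 319.9 and 403 CPM in MKM2, MKF1 and MKF2, against 68.1, 35.9, 30.02 and 46.8 CPM in MWM1, MWM2, MWF1 and MWF2. It had 110.4 and 64.5 CPM in EVM and between 5.18 and 7.84 CPM in EVFY1, EVFY2, EVFN2, ESM1 and ESM2. Cd9 (chromosome 6, 125460266 to 125494791, minus strand), a tetraspanin that adipocytes, platelets and vessels also make, had 155 to 193 CPM in KO implants and 60.2 to 95.9 CPM in WT implants, with 36.1 to 95.3 CPM in visceral fat and 61.5 and 69.8 CPM in subcutaneous fat. Its ratio of means between KO and WT implants was 2.17, beside 12.3 for Gpnmb and 8.11 for Itgax.

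Cd68 (chromosome 11, 69664213 to 69666153, minus strand), a heavily glycosylated protein of the macrophage lysosome, had 632 (MKM2), 720.2 (MKF1) and 843 CPM (MKF2) in KO implants, against 164 (MWM1), 109.6 (MWM2), 78.6 (MWF1) and 62.7 CPM (MWF2) in WT implants. It had 247 and 188 CPM in EVM, and 48.9 to 82.7 CPM in the other 5 fat libraries. The KO implants stood apart from all others, and EVM from the other fat libraries.

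Of the lipid carriers, Fabp5 was highest in KO implants and Apoe overlapped between KO and WT implants. Fabp5 (chromosome 3, 10012548 to 10016607, plus strand), a fatty acid binding protein of macrophages, skin and endothelium, had 133 to 182 CPM in KO implants and 34.1 to 80.3 CPM in WT implants, with 41.8 to 109.8 CPM in visceral fat and 43.1 and 57.2 CPM in subcutaneous fat. Apoe (chromosome 7, 19696109 to 19699188, minus strand), the apolipoprotein that carries cholesterol out of macrophages and is made in bulk by liver and fat, had 6351 (MKM2), 4108 (MKF1) and 4720.4 CPM (MKF2) in KO implants, against 6421 (MWM1), 4648 (MWM2), 2847 (MWF1) and 4126 CPM (MWF2) in WT implants. It had 4282.5 and 5152 CPM in EVM, 3401 and 3295 CPM in EVFY, 4277 CPM in EVFN2 and 5515 and 6114 CPM in ESM. KO and WT implants overlapped for Apoe, and all 5 libraries of visceral fat lay below both of subcutaneous fat, as they did for 4.06% of genes. The ratio of means between KO and WT implants was 1.12. The summed level of 8 hepatocyte markers differed between libraries too, though not always in the order of Apoe. It was 9024 (MKM2), 1565 (MKF1) and 47.8 CPM (MKF2) in KO implants, 2555 to 12062 CPM in WT implants and 8.43 to 63.2 CPM in the 7 libraries of endogenous fat. Its part in the Apoe levels was not tested.

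The secreted members differed from each other. Lgals3 (chromosome 14, 47367751 to 47386160, plus strand), galectin-3, which binds glycans and damaged lysosomes, had 1538, 1563 and 1721 CPM in MKM2, MKF1 and MKF2, against 504, 358, 108 and 131 CPM in MWM1, MWM2, MWF1 and MWF2. It had 612 and 378 CPM in EVM, and 80.7 to 158 CPM in the other 5 fat libraries. Spp1 (chromosome 5, 104435118 to 104441050, plus strand), osteopontin, a cytokine of macrophages and bone cells that binds integrins and Cd44, had its highest mean in WT implants. It had 108 (MKM2), 50.6 (MKF1) and 28.2 CPM (MKF2) in KO implants, against 198 (MWM1), 231 (MWM2), 44.8 (MWF1) and 85.6 CPM (MWF2) in WT implants. In visceral fat it had 19.98 and 9.22 CPM in EVM, 0.201 and 0.822 CPM in EVFY (4 and 15 reads) and 0.238 CPM in EVFN2 (4 reads), and in subcutaneous fat 7.37 (ESM1) and 9.80 CPM (ESM2). KO and WT implants overlapped, and all implants lay above all fat libraries; 9.36% of genes had all 4 WT implants above all 5 libraries of visceral fat. The mean was 62.2 ± 41.0 CPM in KO implants and 140 ± 88.8 CPM in WT implants (ratio 0.445), and the WT mean was 23.0 times that of visceral fat.

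**Figure D1:**
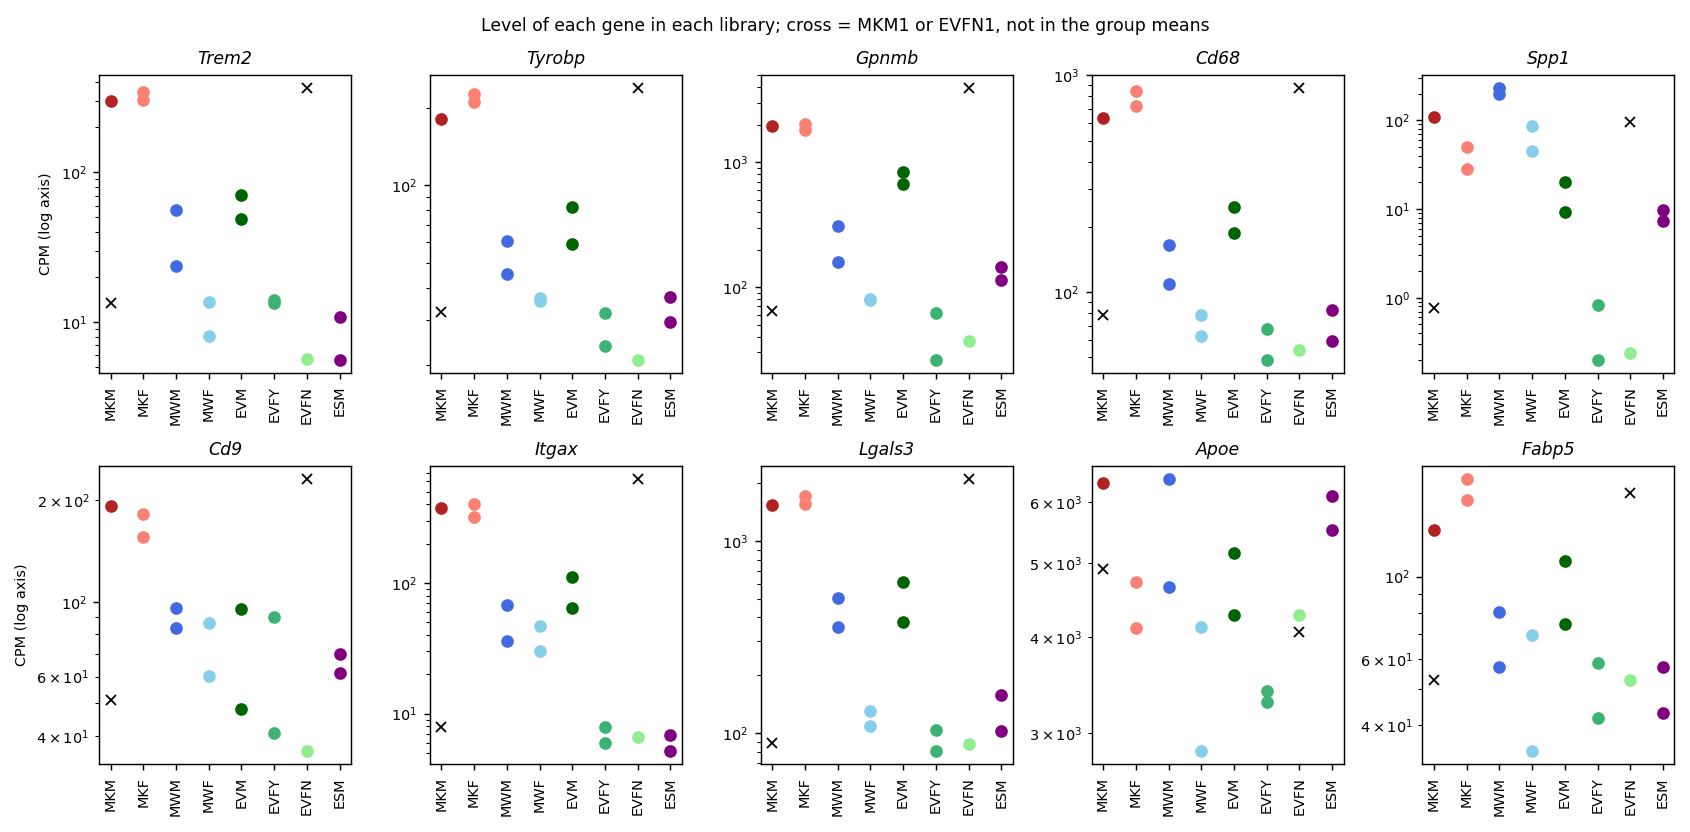
Level of each of the 10 genes in CPM (vertical, log axis, a different range in each panel) in every library, by group code (horizontal); each point is a library, and crosses are the libraries labelled MKM1 and EVFN1. In 8 panels MKM2 and MKF lie above all other round points, Apoe shows little separation, and Spp1 is highest in MWM.

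Of the 10 members, 8 had all 3 KO implants above all 4 WT implants, the exceptions being Spp1 and Apoe, while 14.3% of the 17871 genes tested did so. The same 8 were above all 11 other libraries, against 8.49% of genes. As the list was drawn up with these tissues in view, nothing is read from the difference. The difference on the log2(CPM + 0.5) scale shrinks for genes of low level. That of KO minus WT implants was 3.96 (SE 0.34) for Trem2, 3.86 (SE 0.32) for Gpnmb and 3.08 (SE 0.29) for Itgax. It was between 2.19 and 2.85 for Tyrobp, Lgals3 and Cd68, 1.38 (SE 0.28) for Fabp5, 1.16 (SE 0.31) for Cd9, 0.29 (SE 0.20) for Apoe and -0.84 (SE 0.38) for Spp1. With all 16 libraries as labelled these differences were smaller and their errors larger, with 2.85 (SE 1.19) for Trem2, 2.63 (SE 1.32) for Gpnmb and -2.45 (SE 1.52) for Spp1. Against visceral fat, with which the comparison shares the KO implants, the differences were 4.18 (SE 0.34) for Trem2, 4.20 (SE 0.31) for Gpnmb, 4.49 (SE 0.28) for Itgax and 4.90 (SE 0.37) for Spp1. WT implants minus visceral fat gave 5.75 (SE 0.33) for Spp1 and 1.41 (SE 0.25) for Itgax, and between -0.10 and 0.60 for the other 8 members. Implants and EVM had surgery, EVFN had none, and that of EVFY is not stated. Tissue can therefore not be fully told apart from surgery in the comparisons with visceral fat.

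**Figure D2:**
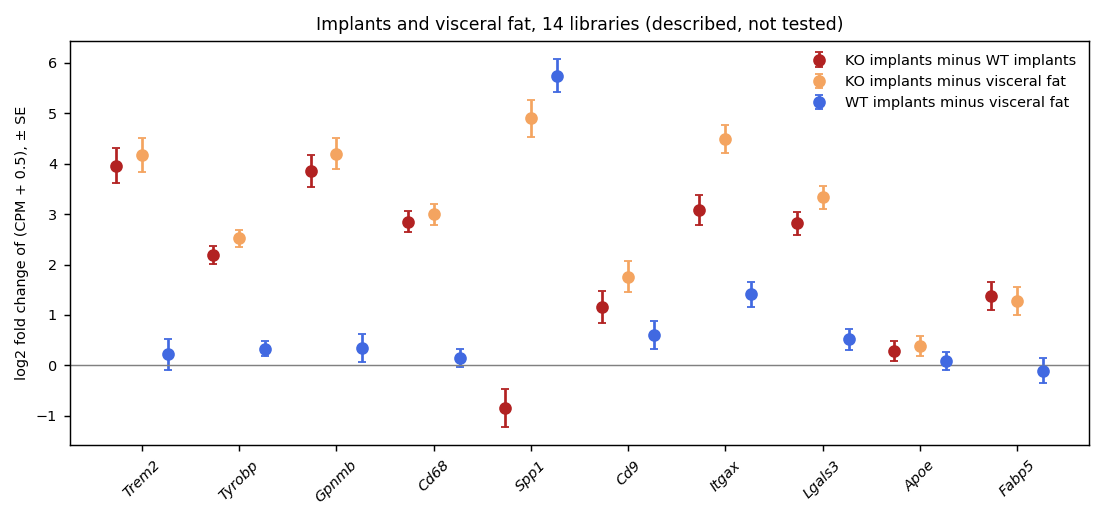
Difference of each gene on the log2(CPM + 0.5) scale (vertical, ± SE) between KO implants, WT implants and visceral fat in the fit of 14 libraries; the comparisons share libraries and are a description. Trem2 and Gpnmb lie near 4 in both comparisons of KO implants, and Spp1 lies at -0.84 against WT implants and at 4.90 against visceral fat.

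The 2 libraries left out of the means show where the labels and the levels part. The library labelled EVFN1 had 365 CPM of Trem2, 3933 of Gpnmb, 619.8 of Itgax, 872 of Cd68 and 2091 of Lgals3, and lay above all 3 KO implants for 7 members. Its neighbour by label, EVFN2, was among the lowest libraries for these genes. The library labelled MKM1 had 13.4 CPM of Trem2, 64.5 of Gpnmb, 7.93 of Itgax, 78.5 of Cd68, 88.3 of Lgals3 and 0.771 of Spp1, and lay within the range of the 5 visceral fat libraries for all 10 members. Counting these 2 libraries in their labelled groups changed the size and error of the differences but turned no member's direction in KO minus WT implants or KO implants minus visceral fat. In WT implants minus visceral fat it turned the differences of Trem2, Tyrobp, Gpnmb, Cd68 and Lgals3 (to between -0.77 and -0.24), and in visceral minus subcutaneous fat those of Gpnmb (0.82) and Cd9 (0.14).

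General macrophage genes differed between the implants as well. Of 15 markers shared by most macrophages, 13 were higher in KO implants and 0 lower (limma, adjusted p under 0.05 over all 17871 genes; 6.67% of genes were called higher and 4.1% lower), with a median log2 difference of 1.78 beside -0.06 over all genes. Csf1r, the receptor for the macrophage growth factor, averaged 707 ± 97.8 CPM in KO implants and 199 ± 8.83 CPM in WT implants, and Adgre1, encoding F4/80, 388 ± 40.9 and 63.6 ± 19.5 CPM. The summed level of these markers was 5589 to 7262 CPM in KO implants, 1717 to 2049 CPM in WT implants, 1631 to 2778 CPM in visceral fat and 1663 and 2301 CPM in subcutaneous fat. With 16 libraries, 4 of the 15 were higher, where 1.72% of genes were called. To set the members beside these markers, the mean log2 level of the 15 was subtracted in each library; it was 1.65 higher in KO than in WT implants. The remaining difference was 2.33 for Trem2, 2.21 for Gpnmb, 1.42 for Itgax, 1.25 for Cd68, 1.19 for Lgals3 and 0.59 for Tyrobp. It was -0.20 for Fabp5, -0.52 for Cd9, -1.44 for Apoe and -2.74 for Spp1. On this scale 5 members (Trem2, Tyrobp, Gpnmb, Cd68 and Itgax) had every KO implant above every WT implant. The share of all genes that do so on this scale was not computed. As the list was drawn up with these tissues in view, nothing is read from this count. Against visceral fat Gpnmb was not set apart on this scale, with a mean of 3.28 ± 0.157 in KO implants and 3.10 ± 0.106 in EVM (SD, n = 3 and 2). For Lgals3 the values were 2.90 to 3.11 in KO implants and 2.93, 2.61, 0.78 and 0.98 in MWM1, MWM2, MWF1 and MWF2, so that MWM1 reached the range of the KO implants.

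**Figure D3:**
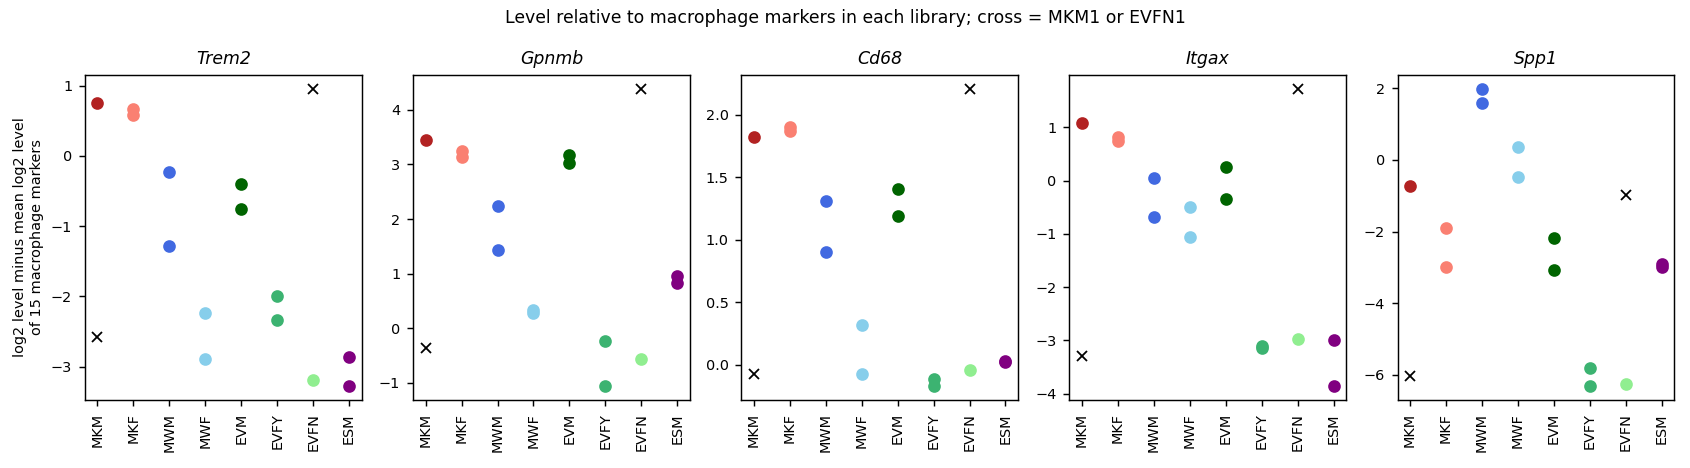
Level of 5 members relative to 15 macrophage markers (log2 level minus the mean log2 level of the markers, vertical) in each library by group code; crosses are MKM1 and EVFN1. Apart from the cross of EVFN1, Trem2, Cd68 and Itgax are highest in KO implants, the EVM libraries (3.18 and 3.02) come close to or into the range of KO implants (3.13 to 3.45) for Gpnmb, and Spp1 is highest in MWM.

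Within visceral fat 6 of 10 members were called lower in EVFY than in EVM and 0 higher by limma. The members were chosen with visceral fat as a whole in view, so this comparison is not fully independent of the choice. By the same rule 0.47% of all genes were called lower and 0.845% in either direction. Gpnmb averaged 44.2 ± 25.4 CPM in EVFY and 757 ± 121 CPM in EVM (SD, n = 2 each), a log2 difference of -4.20 (SE 0.41, adjusted p = 0.00453). Itgax averaged 6.89 ± 1.35 CPM in EVFY and 87.4 ± 32.5 CPM in EVM (log2 difference -3.53, SE 0.37, adjusted p = 0.00682). Spp1 was at 0.512 ± 0.439 CPM in EVFY and 14.6 ± 7.60 CPM in EVM (-3.87, SE 0.47, adjusted p = 0.0130). These 3 genes had the largest differences, and for each both EVM libraries lay above both EVFY libraries. Lgals3 (-2.39, SE 0.30, adjusted p = 0.0130), Cd68 (-1.90, SE 0.27, adjusted p = 0.0218) and Tyrobp (-1.33, SE 0.22, adjusted p = 0.0345) were also lower. Trem2 averaged 13.8 ± 0.474 CPM in EVFY and 59.6 ± 15.6 CPM in EVM, and its difference of -2.05 (SE 0.43) did not pass (adjusted p = 0.0768). Fabp5 (-0.86, adjusted p = 0.291), Apoe (-0.49, adjusted p = 0.400) and Cd9 (-0.16, adjusted p = 0.902) did not pass either, and the sign turned for Cd9 without EVFY1 (0.41) or EVM1 (0.33). Both EVFY libraries were below both EVM libraries for 9 members, all but Cd9, against 18.6% of genes. edgeR on the recovered reads called the same 6, where it called 0.644% of genes lower.

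The calls in visceral fat depended on the fit. With the 7 endogenous fat libraries alone, 0 of 10 members passed (adjusted p 0.0696 for Itgax and 0.0937 for Gpnmb, limma), and 8 genes of all passed. With all 16 libraries 0 of 10 passed by limma (0.0167% of genes did) or edgeR and 1, Gpnmb, had an unadjusted p under 0.05 by each tool. Of all 17964 genes then tested, 1631 had one by limma and 1894 by edgeR. Leaving out EVM1 ended the calls of Cd68, Spp1 and Lgals3 (adjusted p 0.0932, 0.0549 and 0.0549), and leaving out EVFY2 ended those of Cd68 and Lgals3 (adjusted p 0.0584 each), while leaving out EVFY1 ended that of Cd68 (0.0629). Tyrobp kept its call in 5 of 14 such fits, and lost it without EVM1 (adjusted p = 0.122), EVFY1, EVFY2, MKF1, MKF2, MWF1, MWF2, MWM1 or MWM2. Gpnmb and Itgax kept theirs in all 14.

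The groups of this comparison differed in more than the members. Ddx3y, from the Y chromosome, was at 0 CPM in both EVFY libraries and at 90.7 and 95.5 CPM in EVM, and Xist, from the inactive X, at 303 and 644 CPM in EVFY and 0.223 and 0.194 CPM in EVM, so that sex and group code cannot be told apart here. EVM had surgery and the surgery status of EVFY is not stated, so surgery cannot be told apart from the code either. Of the 15 general macrophage markers 0 were called, with a median log2 difference of -0.45 beside 0.04 over all genes (summed level 1665 and 2081 CPM in EVFY, 2778 and 2358 CPM in EVM). After subtraction of their mean the difference was -3.75 for Gpnmb, -3.42 for Spp1, -3.08 for Itgax, -1.93 for Lgals3, -1.59 for Trem2 and -1.44 for Cd68. It was -0.87 for Tyrobp, -0.41 for Fabp5, -0.03 for Apoe and 0.30 for Cd9. Other genes called lower in EVFY, named after their values were seen, were Mmp12, macrophage elastase (-5.55, SE 0.72, adjusted p = 0.0158, with 2.06 and 13.5 CPM in EVFY and 364 and 216 CPM in EVM), Atp6v0d2, a subunit of the lysosomal proton pump (-4.43, SE 0.35, adjusted p = 0.00143), Lat2, an adaptor phosphorylated below DAP12 (-2.23, SE 0.28, adjusted p = 0.0130), Itgb2, the partner chain of Itgax (-1.99, SE 0.33, adjusted p = 0.0345), the lysosomal galactosidase Gla (-1.68, SE 0.26, adjusted p = 0.0297) and Pik3r5 of a phosphoinositide kinase (-1.31, SE 0.15, adjusted p = 0.0104). No gene of the 12 pathway lists was called higher in EVFY by limma; among the osteoclast markers Mmp9 was.

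Among the WT implants 4 of 10 members were called higher in MWM than in MWF and 0 lower by limma, where 1.47% of genes were called higher and 12.3% lower. The members were chosen with results of the implants known, these libraries included, so this comparison is not fully independent of the choice either. Lgals3 averaged 431 ± 103 CPM in MWM and 120 ± 15.7 CPM in MWF (SD, n = 2 each), a log2 difference of 1.83 (SE 0.30, adjusted p = 0.00617). Spp1 averaged 214 ± 23.1 CPM in MWM and 65.2 ± 28.8 CPM in MWF (1.78, SE 0.47, adjusted p = 0.0406). Trem2 averaged 39.97 ± 23.1 CPM in MWM and 10.8 ± 3.92 CPM in MWF (1.76, SE 0.43, adjusted p = 0.0314). Gpnmb (1.46, SE 0.41, adjusted p = 0.0457) was called as well. The MWM libraries themselves were uneven, MWM1 having more than 2 times the Trem2 of MWM2. Cd68 (0.93, adjusted p = 0.0510), Apoe (0.67, adjusted p = 0.116), Tyrobp (0.54, adjusted p = 0.138), Fabp5 (0.47, adjusted p = 0.425), Itgax (0.40, adjusted p = 0.528) and Cd9 (0.31, adjusted p = 0.658) did not pass, and the sign turned for Itgax without MWM1 (-0.06) and for Fabp5 without MWF1 (-0.04). Both MWM libraries were above both MWF libraries for 7 members, against 17.5% of genes.

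Here too the count moved with the fit. edgeR called 5 members higher, adding Cd68 (adjusted p = 0.0396), where it called 2.58% of genes higher. Median-of-ratios scaling called 7, adding Cd68, Tyrobp and Apoe. It called 818 of the 17871 genes higher, beside 262 on the CPM scale. That scaling shifted the median log2 difference of all genes by 0.21, to 0.03 against -0.18 on the CPM scale. Among the called genes the share that was higher in MWM was 38.3%, beside 10.7% on the CPM scale. With all 16 libraries 0 of 10 passed by limma (9.26% of genes did) or edgeR, and 1, Apoe, had an unadjusted p under 0.05 by each. Of all 17964 genes then tested, 4165 had one by limma and 3775 by edgeR. Without MWM1 the adjusted p was 0.0545 for Lgals3, 0.166 for Trem2, 0.132 for Spp1 and 0.243 for Gpnmb. Spp1 was also lost without MWM2 (adjusted p = 0.202), MWF1, MWF2, ESM1 or ESM2, Trem2 without MWF1 (adjusted p = 0.162), MWF2, MKF1 or MKF2, and Gpnmb without any of 10 libraries (MWM1, MWM2, MWF1, MWF2, MKF1, MKF2, EVM1, EVM2, ESM1 and ESM2). In the fit of implants alone Trem2 was lost (adjusted p = 0.0614) and Cd68 was called (adjusted p = 0.0455).

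Other cell types differed strongly between these implants. All 8 T cell markers were lower in MWM, with summed levels of 13.3 and 23.2 CPM in MWM and 434 and 581 CPM in MWF, and of the 17 genes of signalling below DAP12, many of which lymphocytes share, 11 were lower in MWM and 0 higher. The summed level of 8 hepatocyte markers was 12062 and 6169 CPM in MWM and 2555 and 5501 CPM in MWF, and that of 6 markers of lung epithelium 270 and 131 CPM in MWM and 462 and 525 CPM in MWF. The 15 general macrophage markers gave 0 calls (summed level 2049 and 1717 CPM in MWM, 1947 and 1883 CPM in MWF). The part of these cell types in the members' differences was not tested. Of 24 other genes published for the state, 5 were higher in MWM (Ctsb, Ctsd, Plin2, Cstb and Atp6v0d2) and 1 was lower (Cst7), and among 19 lipid handling genes 3 were higher (Npc2, Olr1 and Pltp); these were named after their values were seen. Plin2, the coat protein of lipid droplets, had 761.6 and 540.0 CPM in MWM and 214 and 284 CPM in MWF (log2 difference 1.38, SE 0.25, adjusted p = 0.00984). Ddx3y was at 13.1 and 17.3 CPM in MWM and 0.266 and 0.182 CPM in MWF, and Xist at 494 and 466.1 CPM in MWM and 491 and 766 CPM in MWF.

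**Figure D4:**
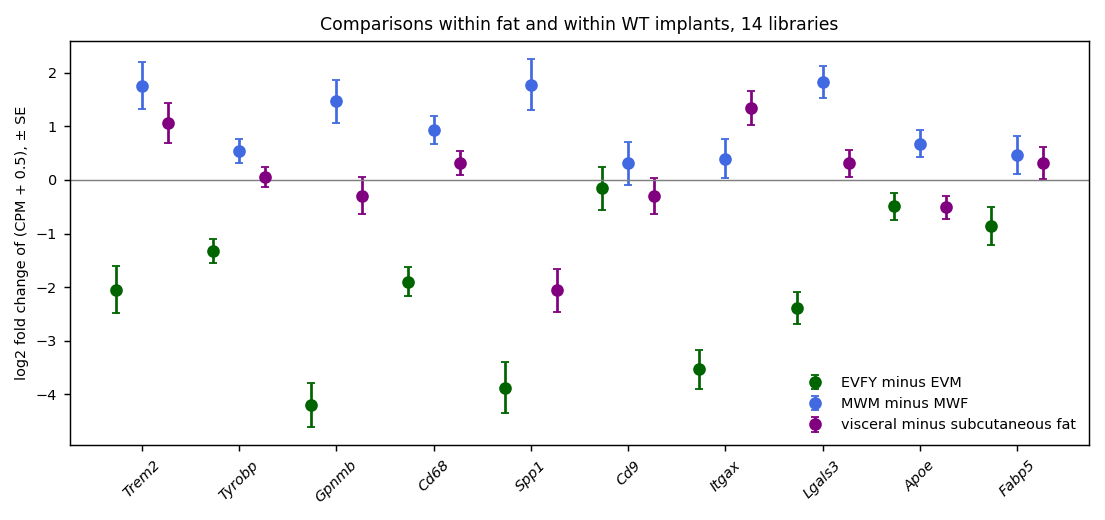
Difference of each gene on the log2(CPM + 0.5) scale (vertical, ± SE) for EVFY minus EVM, MWM minus MWF and visceral minus subcutaneous fat in the fit of 14 libraries. Gpnmb, Spp1 and Itgax are below -3 for EVFY minus EVM, and all 10 differences are above 0 for MWM minus MWF.

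The difference between KO and WT implants was itself compared between the groups described as male and as female, a contrast added after seeing the data, with MKM represented by MKM2 alone and that library assumed to vary like the others. By limma 0 of 10 members passed (0.548% of genes did), with unadjusted p under 0.05 for 4 (Trem2, Tyrobp, Cd68 and Lgals3); by edgeR 0 passed and 5 were under 0.05 unadjusted. The largest difference was that of Lgals3, -1.92 (SE 0.47), the KO implants being less far above the WT implants in the groups described as male. These 2 groups were unlike in sex genes, with Xist at 3.77 CPM in MKM2 and 494 and 466.1 CPM in MWM. Ddx3y was at 80.6 CPM in MKM2 and 13.1 and 17.3 CPM in MWM. In MKF1 and MKF2 Ddx3y was at 0 CPM and Xist at 451 and 517 CPM, although the design text calls all hosts male. The contrast is thus one of group codes and not of sex. The members were chosen with results of these same implants known. The counts and p-values of this contrast are therefore a description, and nothing is concluded from them about the members.

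Between visceral and subcutaneous fat 0 of 10 members passed by limma, where 1.2% of genes did, and 4 had an unadjusted p under 0.05 (Trem2, Spp1, Itgax and Apoe). Of all 17871 genes, 1795 had an unadjusted p under 0.05 by limma. edgeR called 1, Spp1, lower in visceral fat (adjusted p = 0.0348), where it called 0.694% of genes lower. With all 16 libraries 0 passed by limma, where 0.323% of genes did, or by edgeR, and 1, Apoe, had an unadjusted p under 0.05 by each. Of all 17964 genes then tested, 1361 had one by limma and 1713 by edgeR. Spp1 averaged 6.09 ± 8.65 CPM in visceral fat and 8.58 ± 1.71 CPM in subcutaneous fat (SD, n = 5 and 2), with a log2 difference of -2.06 (SE 0.40, adjusted p = 0.0541, limma). It passed with a pseudocount of 0.1 (adjusted p = 0.0409), with median-of-ratios scaling (0.02998), without EVM1 (0.0311) and without EVM2 (0.0436), which were 2 of the 14 fits that left out a library; the adjusted p reached 0.442 among these, and it was 0.192 with endogenous fat alone. Itgax averaged 39.0 ± 47.1 CPM in visceral fat and 6.02 ± 1.19 CPM in subcutaneous fat (1.34, SE 0.31, adjusted p = 0.115), and passed without EVM2 (0.0477) or EVFN2 (0.0262), with up to 0.656 among the 14 fits and 0.192 with endogenous fat alone. The SD within visceral fat, with EVM high and EVFY and EVFN2 low, was larger than the difference of the depots' means for every member except Apoe. Ddx3y was at 89.7 and 73.5 CPM in ESM1 and ESM2 and at 90.7 and 95.5 CPM in EVM, but at 0 CPM in EVFY1, EVFY2 and EVFN2. ESM and EVM had surgery, EVFN had none, and that of EVFY is not stated. Depot can therefore not be fully told apart from sex and surgery here, for Apoe and Spp1 as for the others. All 6 Schwann cell markers were lower in visceral fat, with summed levels of 74.5 to 132 CPM in visceral and 648 and 790 CPM in subcutaneous fat (ESM2 and ESM1); their part in the Spp1 levels was not tested.

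Partners of the members were read from lists of the pathway in KO and WT implants (limma, adjusted p under 0.05). By this rule 6.67% of all genes were called higher in KO implants and 4.1% lower. All lists were chosen with earlier results of these data known, and genes were named by their p in this same comparison. The counts and p-values of the lists are therefore a description and no independent support for the members. Of 10 tested TREM receptors and DAP12 partners 3 were higher in KO implants (Cd300lb, Cd300ld and Treml1) and 1 lower (Siglech, a lectin of plasmacytoid dendritic cells), with a median log2 difference of 0.43. Cd300lb, which signals through DAP12, averaged 87.6 ± 7.16 CPM in KO implants and 11.8 ± 6.59 CPM in WT implants (2.98, SE 0.22, adjusted p = 0.000337). Of 17 genes of signalling below DAP12, 8 were higher and 0 lower (median 0.83). They included Lat2 with 57.6 ± 2.23 CPM in KO implants and 12.3 ± 3.32 CPM in WT implants, Pik3r5, the exchange factor Vav3 and the scaffold Card9.

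Of the 24 other genes published for lipid-associated or disease-associated macrophages 19 were higher and 0 lower (median 1.41), beside 6.67% and 4.1% of all genes. This list too was chosen with earlier results known. Atp6v0d2 averaged 257 ± 11.6 CPM in KO implants and 21.05 ± 15.6 CPM in WT implants (3.83, SE 0.27, adjusted p = 0.000337). Lipa, the lysosomal acid lipase, averaged 794 ± 42.8 CPM in KO implants and 143 ± 65.8 CPM in WT implants (2.55, SE 0.24, adjusted p = 0.000522), and Plin2 and the cathepsin Ctsb were among the 19. Of 19 tested genes of foam cell lipid handling 13 were higher and 0 lower (median 0.89), with Msr1, a scavenger receptor for modified lipoproteins, at 57.9 ± 5.57 CPM in KO implants and 8.24 ± 1.93 CPM in WT implants, and Gla and the phospholipid transfer protein Pltp among them. Of 16 transcription factors 6 were higher and 0 lower (median 0.52), among them Spi1, Atf3, Mitf, Tfec and Tfe3. Spi1, encoding PU.1, averaged 210.1 ± 21.1 CPM in KO implants and 53.96 ± 6.65 CPM in WT implants, and Mitf, which turns on Gpnmb in pigment cells and osteoclasts, 52.7 ± 4.10 and 19.4 ± 2.09 CPM. Melanocyte markers, which share Gpnmb, summed to 1.64 to 5.22 CPM over the 14 libraries.

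Relatives and receptors of the members were read next, in the comparison where 6.67% of all genes were called higher and 4.1% lower. With all 16 libraries 1.72% of genes were called in either direction. Of 7 genes of the beta2 integrin family 5 were higher (Itgb2, Itgam, Itgad, Fermt3 and Tln1), with Itgb2 at 524 ± 30.8 CPM in KO implants and 126 ± 26.2 CPM in WT implants. Itgad averaged 135.9 ± 18.3 CPM in KO implants and 109.6 ± 132 CPM in WT implants. It differed widely among the WT implants, with a log2 difference of 5.46 (SE 0.60) for MWM minus MWF. Of 11 tetraspanins and Cd9 partners 3 were higher (Cd63, Cd53 and Igsf8). Of 13 efferocytosis receptors and bridges 5 were higher, led by Stab1 and Mertk, and 2 lower (Timd4 and Havcr1). Of 6 receptors for apolipoprotein E Lrp1 was higher and Sorl1 lower. No call was made by limma among 9 osteopontin receptors (Cd44 with 157 ± 14.5 CPM in KO implants and 79.0 ± 8.30 CPM in WT implants, adjusted p = 0.0622), 7 galectins or 5 fatty acid binding proteins. edgeR, which called 9.8% of genes in either direction, added Lgals8 among the galectins and called 0 among the other 2 lists. With all 16 libraries these counts fell to 1 of 24 in the other published genes (Axl), 1 of 19 in lipid handling (Npc1), 1 of 16 transcription factors (Mitf), 2 higher and 1 lower in efferocytosis, Sorl1 alone, lower, among receptors for apolipoprotein E, and 0 in the remaining 7 pathway lists.

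Lists for other cells that make the members were read in the same way, beside 6.67% of all genes called higher and 4.1% lower. Of 8 tested osteoclast markers 5 were higher in KO implants (Atp6v0d2, Ctsk, Tnfrsf11a, Ocstamp and Dcstamp) and Mmp9 was lower, with summed levels of 789 to 867 CPM in KO implants and 376 to 498 CPM in WT implants; Calcr was at 0 in fat. Resident macrophage markers were higher for 4 of 10 and lower for 1 (Timd4), monocyte markers gave 0 calls of 8, and dendritic cell markers 1 higher (Clec10a) and 2 lower of 9. Markers of alveolar macrophages, which carry Itgax, Cd68 and Fabp5, gave 0 calls of 6. All 6 lung epithelium markers were lower in KO implants (9.44 to 28.6 CPM in KO implants, 131 to 525 CPM in WT implants and at most 0.397 CPM in fat). The part of these cells in the members' levels was not tested.

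**Figure D5:**
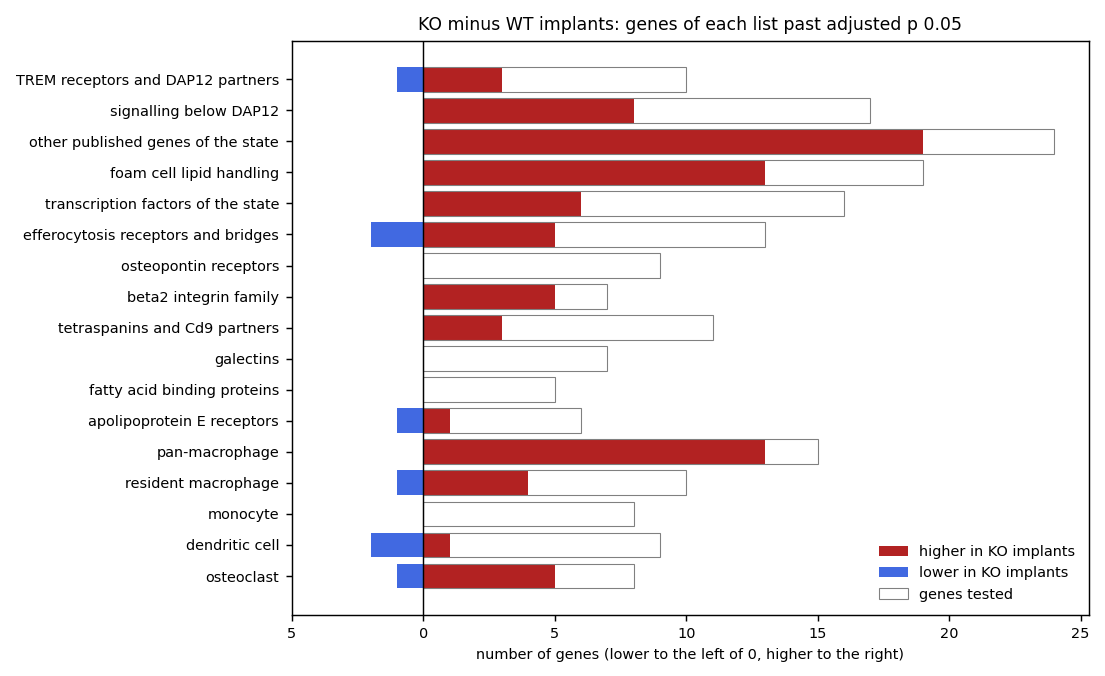
Number of genes of each list called higher (right of 0) or lower (left of 0) in KO implants against WT implants by limma on 14 libraries. Open bars give the genes tested. Of all genes 6.67% were called higher and 4.1% lower, and the lists were chosen with earlier results known. The other published genes (19 of 24), general macrophage markers (13 of 15) and lipid handling genes (13 of 19) have the most calls, and osteopontin receptors, galectins, fatty acid binding proteins and monocyte markers have 0.

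The genes whose pattern was most like that of the members were sought among 11652 genes with at least 5 CPM on average, by Pearson correlation with the mean z-score of the 10 members over the 14 libraries. Adam8, a membrane protease of myeloid cells, came first (r = 0.985), at 474 CPM on average in KO implants, 42.6 in WT implants, 33.2 in visceral fat and 14.7 in subcutaneous fat. It was followed by Tm4sf19 (0.982), the ribonuclease inhibitor Rnh1 (0.982), ferritin light chain Ftl1 (0.981), the cathepsin inhibitor Cstb (0.981), Atp6v0d2 (0.980), Hs6st1 (0.980) and Vsig8 (0.978). The libraries share their tissue groups, so these values are a description in which the KO implants weigh heavily; within tissues, after subtraction of each tissue's mean, r was 0.950 to 0.970 for the 8 genes.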

How the data were processed

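The submitters' processing notes name build mm10 and, without roles or order, STAR (2.5.4), featureCounts from Subread (1.6.3), cutadapt (2.7) and FastQC (0.11.4). For strand and annotation release the sources used here give nothing, so reads of overlapping genes cannot be told apart. The authors deposited 1 table of CPM values for 54658 symbols (98.99% of them in GENCODE M21, which gives positions and joined exon lengths). Nonzero values were whole multiples of 1 read (100%, tolerance 0.001 reads), which returned the reads.

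The test was limma 3.58.1 (R 4.3.3; trend, robust) on log2(CPM + 0.5) for the 17871 genes that reached 1 CPM in 2 or more of 14 libraries. The 8 group means were fitted with 6 residual degrees of freedom, so MKM and EVFN, with 1 library each, were assumed to vary like the rest. Contrasts weight groups equally, p-values are Benjamini-Hochberg adjusted over all genes, and a gene is called below an adjusted p of 0.05. edgeR 4.0.16 (quasi-likelihood, TMM) ran on the recovered reads. limma and edgeR were also run on simulated reads, for EVFY minus EVM only. The simulation gave all genes the same spread and no other group a difference. It therefore cannot check the calls under the uneven spread of the real libraries. ESF, a 17th labelled sample, is not analysed here.

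The members and all lists were chosen with earlier results of these data known. Members are always named, with Lep, Cfd, the 8 genes of the most similar pattern and, from each list, up to 4 genes with the smallest p between KO and WT implants; other names are marked in the text or complete a count. Some genes that this rule names are not reported here. Alternatives tried were edgeR, scaling by median of ratios, all genes unfiltered, pseudocounts of 0.1 and 2, 16 libraries, tissue groups, the replicate number as a block and each library left out. The fits of fat or implants alone, the contrast between the groups described as male and female and edgeR on 16 libraries were added after seeing the data. Libraries of a group differed by more than sampling noise (chi-square per degree of freedom 22.3 to 103).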

Additional observations from a re-analysis of the deposited data

Results flagged for a closer look

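With MKM1 and EVFN1 counted in their labelled groups, 11 of 40 group values had a library far from the rest, judged by the gap to its nearest neighbour as a share of the group's range. All 11 are MKM1 or EVFN1, which had already been set aside for standing apart, so the values describe these 2 libraries and add no independent evidence. Chance gives about 1 in 20 for independent values, and these values share their 2 libraries. In KO implants MKM1 was the lowest library, with a gap share of 0.866 for Trem2, 0.901 for Gpnmb and 0.888 for Lgals3. In visceral fat EVFN1 was the highest, with a gap share of 0.819 for Trem2, 0.719 for Tyrobp, 0.791 for Gpnmb, 0.759 for Cd68, 0.791 for Spp1, 0.696 for Cd9, 0.83 for Itgax and 0.736 for Lgals3. Ddx3y was at 0 CPM in MKM1 and 80.6 CPM in MKM2, and at 29.4 CPM in EVFN1 and 0 CPM in EVFN2.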

How the results depend on the processing

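Over all genes, the number called was 1924 for KO minus WT implants, 4402 for KO implants minus visceral fat, 4011 for WT implants minus visceral fat, 214 for visceral minus subcutaneous fat, 2460 for MWM minus MWF and 151 for EVFY minus EVM. With all 16 libraries these were 309, 0, 1735, 58, 1664 and 3; in KO implants minus visceral fat 2077 genes then had an unadjusted p under 0.05 and edgeR also called 0. With 4 tissue groups the counts were 2546 for WT implants minus visceral fat and 129 between the fat depots, and with endogenous fat alone 73 between the depots and 8 for EVFY minus EVM. edgeR gave 1596 for MWM minus MWF, and median-of-ratios scaling 282 for EVFY minus EVM. Of the genes called between WT implants and visceral fat, 57.0% were higher in the implants with median-of-ratios scaling, beside 71.0% on the CPM scale. Leaving out 1 library at a time gave 825 to 2350, 2815 to 4656, 1708 to 4256, 48 to 419, 520 to 2477 and 33 to 474 in the order of the first sentence. The lowest counts came without MWM2, MKF1, MWM1, ESM2, MWM2 and EVFY2.

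No member called in a tested comparison turned its direction. Replicate numbers did not pair the libraries (same-numbered deviations correlated at -0.444 to 0.336 over 15 pairs of groups, 7 over 0.1). The replicate block gave 1684, 4143, 3736, 200, 2082 and 113 genes; Gpnmb and Spp1 in MWM minus MWF (adjusted p 0.0653 and 0.0585) and Tyrobp in EVFY minus EVM (0.0577) were then not called. A pseudocount of 0.1 took the adjusted p of Spp1 in MWM minus MWF to 0.0780, and no filter on low genes gave 0.0510 for Spp1 and 0.0580 for Gpnmb there. Trem2 passed in EVFY minus EVM with median-of-ratios scaling (0.0497). With 2 libraries a group or fewer, the spread rests on all groups together, and Spp1 in EVFY and EVFN2 rests on 4 to 15 reads.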
